A study of Mus musculus with 8 samples.

Results

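The genes examined here encode AMPA-type glutamate receptors and proteins that attach to them: the pore subunits Gria1, Gria2, Gria3 and Gria4, and the auxiliary subunits Cacng4, Cacng5, Cacng7, Cacng8, Gsg1l and Cnih2. They were taken by symbol from the deposited count table, which held all 10 among 24155 genes, and all 10 were among the 18102 genes that could be tested after a filter on low counts. The RNA came from cultured mouse oligodendrocyte progenitors, the dividing glia that give rise to myelinating cells. They were immunopanned from male and female pups at postnatal day 7, and the culture medium held bFGF (20 ng/mL) besides PDGF-AA (10 ng/mL), both growth factors. In control and cKO cultures alike, Ehmt1 and Ehmt2 were floxed (Ehmt1fl/fl;Ehmt2fl/fl); these are genes of partner enzymes that methylate histone H3 at lysine 9. Control cultures (4 libraries) received the adenovirus Ad-RFP, which carries a red fluorescent protein, and cKO cultures (4 libraries) received Ad-RFP-iCre, which adds Cre recombinase. Cells met the virus for 6 hours (multiplicity of infection 10) and were collected 72 hours after infection; the promoter that drives Cre is not stated in the labels. The replicate numbers 1, 3, 4 and 6 name batches that each hold 1 control and 1 cKO library. The labels write the batch of replicate 3 as Batch-3-2. They do not say whether batches came from separate animals.

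AMPA receptors are cation channels built from 4 pore subunits and opened by glutamate. Oligodendrocyte progenitors carry them and receive glutamatergic synapses from axons. Whether a receptor lets calcium through depends mostly on GluA2, the product of Gria2: its RNA is edited at the codon known as the Q/R site, and a receptor that holds edited GluA2 passes little calcium, whereas receptors without it are calcium permeable. Auxiliary subunits, among them the TARP family (Cacng genes), cornichons (Cnih genes) and GSG1L, set how many receptors reach the surface and how long and how strongly they conduct.

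The Q/R codon is the base for the subunit ratios below, so its surroundings are shown for the 4 pore subunits, read from GENCODE M21 transcripts (GRCm38, the same build as mm10). Each window runs 5′ to 3′ on the coding strand, with the codon in capitals.
Gria1: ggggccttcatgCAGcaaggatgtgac
Gria2: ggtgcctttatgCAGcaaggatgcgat
Gria3: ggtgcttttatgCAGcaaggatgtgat
Gria4: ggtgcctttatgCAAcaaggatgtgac
The codon lies in exon 11 of 16 of Gria2 (chromosome 3, 80706911 to 80706913, minus strand), exon 11 of 16 of Gria1 (chromosome 11, 57243094 to 57243096, plus strand) and exon 11 of 16 of Gria3 (chromosome X, 41610265 to 41610267, plus strand). In Gria4 it lies in exon 12 of 17 (chromosome 9, 4464137 to 4464139, minus strand). The annotated transcripts spell a glutamine codon in all 4 genes, CAG in Gria1, Gria2 and Gria3 and CAA in Gria4. Over the 27 bases, Gria2 differed from Gria3 at 2 positions, from Gria4 at 3 and from Gria1 at 4. The enzyme ADAR2, encoded by Adarb1, edits the CAG of Gria2 RNA so that it is read as arginine. The deposited counts cover whole genes and do not show which share of Gria2 RNA was edited.

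Libraries held between 43542742 and 65374488 estimated counts. The targeted genes fell in all 4 pairs, Ehmt1 to 0.434 of its control level (log2 fold change -1.20 ± 0.04 SE, adjusted p = 7.41e-08 in edgeR) and Ehmt2 to 0.329 (-1.60 ± 0.03 SE, adjusted p = 2.16e-09). Lineage markers were abundant, with Pdgfra at 969 ± 442 CPM, Olig2 at 906 ± 188 and Sox10 at 425 ± 158 in control (SD, n = 4). Of 12 progenitor markers, 2 rose (Lhfpl3 and Matn4), 2 fell (Pdgfra by 0.31 and Ptprz1 by 0.11 on the log2 scale) and 8 did neither, in the sense defined below. Of all genes tested, 10.0% rose and 10.4% fell. The summed level of the progenitor markers was lower in cKO in all 4 pairs, as was that of all genes tested. The part of progenitor content in the changes of the receptor genes was not tested. CPM are counts per 1e6 counts of the library, scaled for library composition. Batches also differed in markers of differentiating oligodendrocytes. The summed level of 14 such markers was 890 to 1196 CPM in the 4 libraries of replicates 1 and 3 and 5447 to 10370 CPM in those of replicates 4 and 6, a gap carried mostly by Gpr17 and Bcas1 (5377 and 2655 CPM in control replicate 4). The markers did not share one batch pattern: Mbp, Mog, Mobp, Ermn and Mal were highest in replicate 1 in both groups. The summed level of 11 astrocyte markers was lowest in replicate 3, at 1338 CPM in control and 1234 in cKO, against 2342 to 3578 in the other libraries. In bulk RNA, fewer cells of a type and less RNA per cell cannot be told apart.

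In control cultures the auxiliary subunit Cacng4 was the most abundant of the 10 genes per length, at 95.6 ± 15.1 CPM per kilobase of exon (SD, n = 4), followed by Cacng7 at 59.3 ± 9.56. Both lay above all pore subunits in each of the 4 control libraries. Gria4 (16.8 ± 2.70), Gria2 (16.75 ± 2.32), Gria3 (13.1 ± 3.34) and Cnih2 (12.9 ± 1.64 CPM per kilobase) followed, and the ranges of neighbours in that order overlapped. Cacng8 came next at 8.68 ± 2.30, a range that overlapped that of Cnih2. The 3 scarce genes were Gria1 at 1.11 ± 0.666, Gsg1l at 0.876 ± 0.816 and Cacng5 at 0.430 ± 0.230 CPM per kilobase, all below Cacng8 in every control library and not separable from each other by range. Length here is the union of annotated exons, so a gene whose cells use short ends is understated.

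Of the 10 genes, 4 rose and 3 fell in cKO, and 3 did neither. "Rose" and "fell" mean an adjusted p under 0.05 (Benjamini-Hochberg over all genes tested) in edgeR's quasi-likelihood test with the replicate number as a block. Fold changes are on the log2 scale, cKO over control, with their standard error. Across all genes tested, 20.5% passed in either direction, 10.0% higher and 10.4% lower. All 4 pairs moved one way for 8 of the 10, against 40.8% of all genes. The median change was 0.11 over the 10 genes and -0.01 over all genes tested. Without the block, edgeR called 0 of the 10 at that threshold, against 0.0166% of all genes (0.00552% higher and 0.011% lower), and 1 of them lay under an unadjusted p of 0.05. The calls with the block measure each change against the spread of the difference between pairs.

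**Figure D1:**
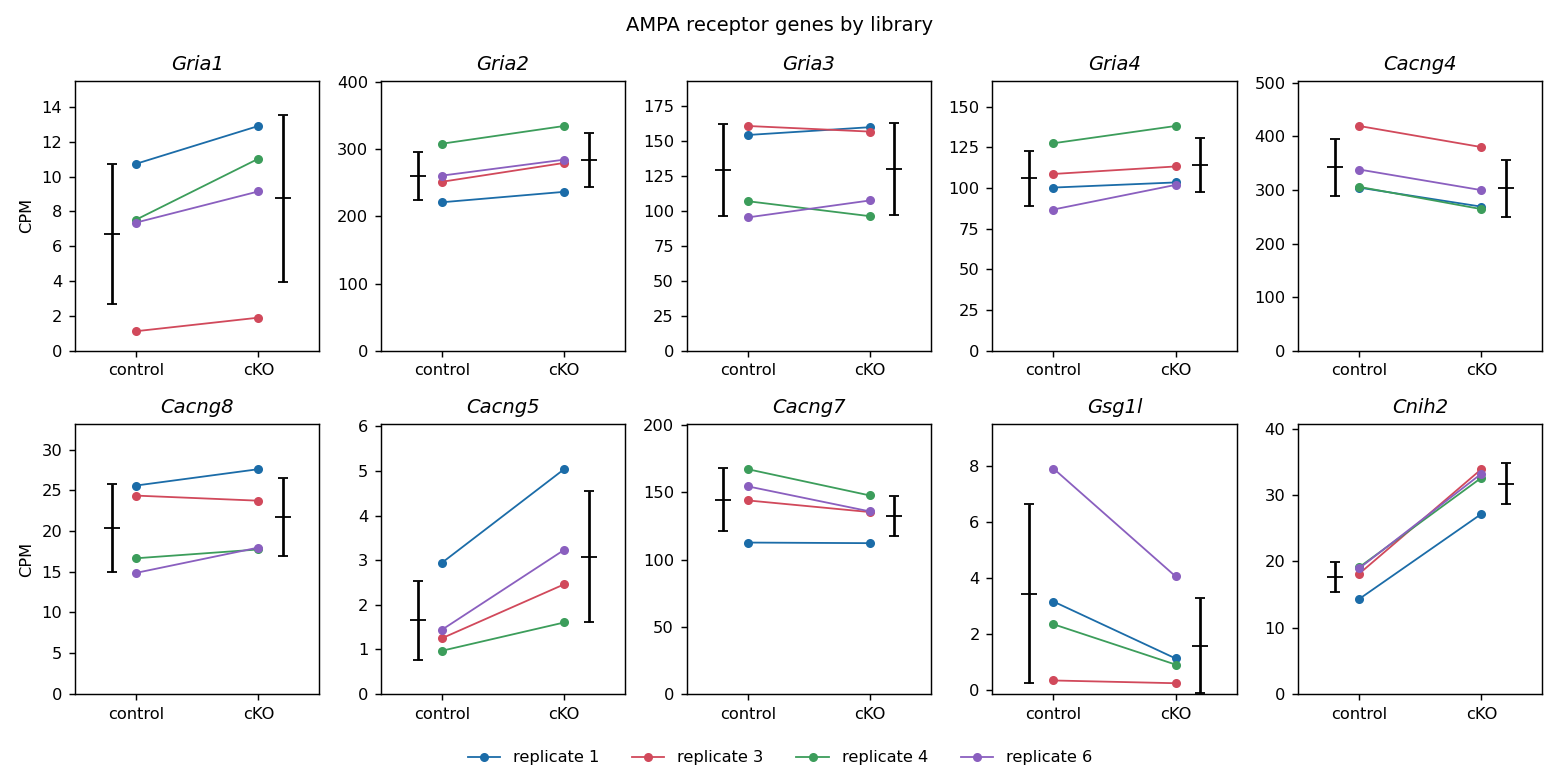
CPM of the 10 genes in each library; lines join the control and cKO library of a replicate number, and black bars give the group mean ± SD (n = 4). Cnih2 was the gene whose cKO libraries (27.1 to 33.9 CPM) all lay above the control libraries (14.3 to 19.1), and Gria1 and Gsg1l were lowest in replicate 3.

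Among the pore subunits, Gria1, which encodes GluA1, rose from a low level. It lies on chromosome 11 (57011387 to 57330244, plus strand). Its levels in control replicates 1, 3, 4 and 6 were 10.7, 1.12, 7.53 and 7.36 CPM, and in the matching cKO libraries 12.9, 1.90, 11.03 and 9.15 CPM. Each cKO library lay above its partner, but the groups overlapped, since replicate 3 was far below the others in both groups. The change was 0.42 ± 0.09 (adjusted p = 0.00905 in edgeR), higher in 4 of 4 pairs. Without the pair of replicate 3, which stood apart, the change was 0.38 (adjusted p = 0.0241 in edgeR), and without that of replicate 4 the adjusted p was 0.0568. The library range within the control group was 9.31-fold, against a fitted change of 1.34-fold.

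Gria2, which encodes the subunit that limits calcium entry, rose slightly. It lies on chromosome 3 (80681450 to 80802835, minus strand). Control replicates 1, 3, 4 and 6 held 221, 252, 308 and 261 CPM, and the cKO libraries 237, 280, 335 and 285 CPM. The shift was alike in the 4 pairs, from 0.10 to 0.15 log2 units, and smaller than the range between batches. The fitted change was 0.12 ± 0.03 (1.09-fold, adjusted p = 0.0111 in edgeR), and without the pair of replicate 3 the edgeR adjusted p was 0.0548.

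Gria3 and Gria4, the genes of GluA3 and GluA4, did not pass. Gria3 (chromosome X, 41400854 to 41678601, plus strand) held 154, 160.5, 107 and 95.2 CPM in control replicates 1, 3, 4 and 6 and 159.6, 156, 96.1 and 107 CPM in cKO. It was higher in cKO in 2 pairs and lower in 2 (0.01 ± 0.05, adjusted p = 0.924 in edgeR). In both groups its level was higher in replicates 1 and 3 than in replicates 4 and 6, the reverse of Gpr17 and Bcas1; the part of differentiating cells in this pattern was not tested. Gria4 (chromosome 9, 4417896 to 4796234, minus strand) held 100.2, 109, 127 and 86.7 CPM in control and 103, 113, 138 and 102 CPM in cKO. It was higher in 4 of 4 pairs, with a change of 0.11 ± 0.04 and an adjusted p of 0.0509 in edgeR. That value lies at the threshold: with upper-quartile scaling, with no filter and with a filter of 1 CPM it was 0.0347, 0.0372 and 0.0416. Only these 3 of 11 alternatives passed. The adjusted p was 0.115 in DESeq2, and 0.152 in edgeR without the pair of replicate 6.

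**Figure D2:**
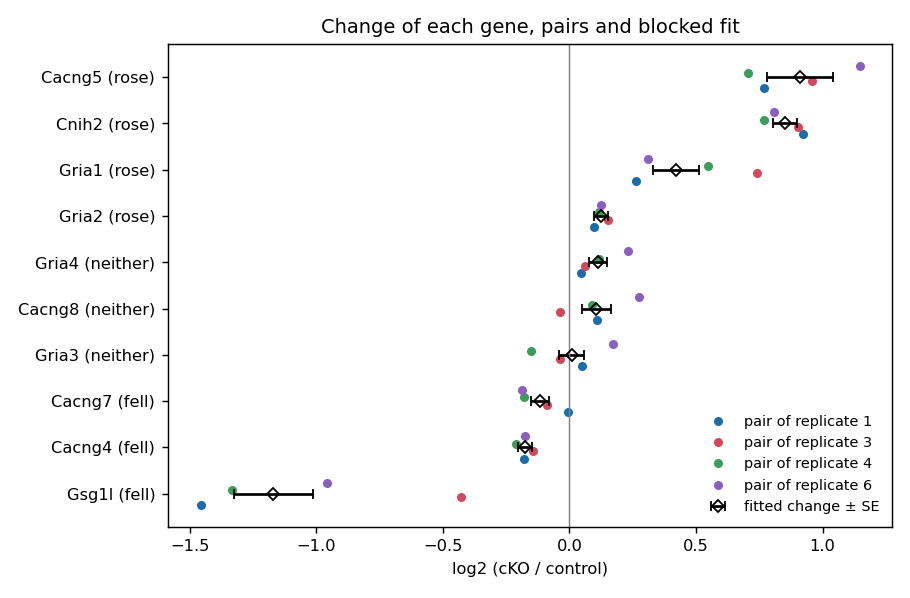
Log2 change of cKO over control for each gene; coloured points are the 4 pairs and open diamonds the blocked edgeR fit ± SE. Changes ran from -1.17 for Gsg1l to 0.91 for Cacng5, and the pore subunits lay between 0.01 and 0.42.

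The type I TARPs, which raise surface expression and slow the closing of AMPA receptors, are represented by Cacng4 and Cacng8. Cacng4 (chromosome 11, 107732357 to 107794557, minus strand) fell slightly from a high level. Its control libraries held 304, 419, 306 and 338 CPM (replicates 1, 3, 4 and 6) and its cKO libraries 269, 379.9, 264 and 299.6 CPM. Every cKO library lay below its partner, while the groups overlapped. The change was -0.18 ± 0.03 (0.885-fold, adjusted p = 0.00197 in edgeR), and it passed without any 1 of the 4 pairs. Cacng8 (chromosome 7, 3390683 to 3415648, plus strand) held 25.6, 24.3, 16.7 and 14.9 CPM in control and 27.6, 23.7, 17.7 and 18.0 CPM in cKO. Its change of 0.11 ± 0.06 did not pass (adjusted p = 0.214 in edgeR). Like Gria3, it was higher in replicates 1 and 3 than in replicates 4 and 6 in both groups.

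Of the type II TARPs, which modulate fewer kinds of AMPA receptor, Cacng5 rose and Cacng7 fell. Cacng5 encodes γ-5, studied in oligodendrocyte progenitors as a regulator of calcium-permeable receptors. It lies on chromosome 11 (107874605 to 107915055, minus strand), on the same strand as Cacng4. Control replicates 1, 3, 4 and 6 held 2.94, 1.25, 0.967 and 1.44 CPM, and the cKO libraries 5.04, 2.46, 1.60 and 3.23 CPM. The level stayed low, yet each cKO library exceeded its partner, by 0.71 to 1.15 log2 units. The fitted change was 0.91 ± 0.13 (1.88-fold, adjusted p = 0.00114 in edgeR), and leaving out any 1 pair kept the edgeR adjusted p at or under 0.00894. Cacng7 encodes γ-7 (chromosome 7, 3332955 to 3368221, plus strand) and came second of the set per kilobase of exon. It held 113, 144, 167 and 155 CPM in control and 112, 135, 148 and 136 CPM in cKO. The pair of replicate 1 differed by -0.01 log2 units, against -0.09 to -0.19 in the others. Its change of -0.12 ± 0.04 passed narrowly (adjusted p = 0.0445 in edgeR). Without the pair of replicate 3, 4 or 6 the adjusted p was 0.129, 0.262 and 0.118, and with upper-quartile scaling 0.0716.

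The largest fall was in Gsg1l, whose product slows the recovery of AMPA receptors from desensitization and dampens their current. It lies on chromosome 7 (125878420 to 126082411, minus strand). Levels were 3.16, 0.344, 2.35 and 7.89 CPM in control replicates 1, 3, 4 and 6 and 1.13, 0.246, 0.910 and 4.05 CPM in cKO. In counts, the replicate 3 pair rested on 19 in control and 11 in cKO, and the replicate 6 pair on 417 and 251. Every cKO library lay below its partner, although the control libraries spanned a 20.9-fold range and the groups overlapped. The change was -1.17 ± 0.16 (0.445-fold, adjusted p = 7.54e-04 in edgeR), and without any 1 pair it lay between -1.29 and -1.05. Gsg1l and the summed astrocyte markers had the same extremes: replicate 6 was highest for both (3578 CPM of astrocyte markers in control, 3263 in cKO) and replicate 3 lowest. Of those 11 astrocyte markers 2 rose (Gfap and Aqp4) and 5 fell, where 10.0% of all genes tested rose and 10.4% fell. The summed level of the astrocyte markers was lower in cKO in all 4 pairs, as was that of all genes tested. The fall of the astrocyte sum was carried mostly by Slc1a3 (mean 1137 CPM in control, 944 in cKO). The sum is therefore no measure of astrocyte content across its markers. The part of astrocytes in the fall of Gsg1l was not tested.

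Cnih2 encodes the cornichon CNIH2, which escorts AMPA receptors out of the endoplasmic reticulum and slows their closing. It lies on chromosome 19 (5092868 to 5098521, minus strand). Control replicates 1, 3, 4 and 6 held 14.3, 18.1, 19.1 and 18.9 CPM, and the cKO libraries 27.1, 33.9, 32.6 and 33.2 CPM. The lowest cKO library lay above the highest control library, which held for 1 of the 10 genes and for 3.67% of all genes tested (2.39% with cKO higher). The change was 0.85 ± 0.05 (1.80-fold, adjusted p = 4.45e-06 in edgeR). Without the block it was also 0.85, with an edgeR adjusted p of 0.110. Cnih2 shares 14 exonic bases with Yif1a on the opposite strand, where reads of the genes cannot be told apart unless the counting used strand. Yif1a did not pass (0.02 ± 0.05, adjusted p = 0.850 in edgeR).

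The genes of the set that rose most, Cnih2 and Cacng5, have RefSeq promoter entries (GRCm38.p6), and the 250 bases before the start are shown for each, with CpG dinucleotides in capitals, since CpG content is a basic feature of a promoter that gene counts do not show.
Cnih2, chr19:5098522-5098771, minus strand: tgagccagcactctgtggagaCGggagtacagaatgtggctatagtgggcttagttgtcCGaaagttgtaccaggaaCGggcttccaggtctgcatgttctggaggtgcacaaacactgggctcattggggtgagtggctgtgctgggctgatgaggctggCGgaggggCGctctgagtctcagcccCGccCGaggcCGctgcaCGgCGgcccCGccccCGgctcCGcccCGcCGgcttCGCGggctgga
Cacng5, chr11:107915056-107915305, minus strand: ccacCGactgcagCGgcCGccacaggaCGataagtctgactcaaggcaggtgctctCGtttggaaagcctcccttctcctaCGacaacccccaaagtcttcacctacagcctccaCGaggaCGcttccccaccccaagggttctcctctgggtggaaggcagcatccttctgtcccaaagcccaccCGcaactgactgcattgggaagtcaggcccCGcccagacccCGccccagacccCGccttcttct
The Cnih2 window holds 17 CpG and the Cacng5 window 12, counts reached by 23.5% and 33.5% of 32851 promoter windows of the same length. A second Cacng5 start, inside the annotated gene, has 2. Promoter entries matched 6 of the 10 genes. The windows of the others held 19 CpG in Gria2, 16 in Gria4 and 9 in Cacng7. The part of CpG content in the changes was not tested. The Cacng8 entry lies inside the gene as GENCODE annotates it, and its window is not used here.

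The ratios that bear on calcium permeability were then compared within pairs. The exact paired permutation test (2-sided) on 4 pairs cannot give a p below 0.125, so no ratio could pass 0.05, and over the 13 ratios computed the smallest adjusted p was 0.203. Of the 13 ratios, 8 moved one way in all 4 pairs; ratios that share a gene are not independent. Per kilobase, Gria2 made up 29.9%, 32.45%, 38.05% and 40.5% of pore subunit counts in control replicates 1, 3, 4 and 6, and 30.5%, 34.5%, 39.15% and 39.1% in cKO. The share was higher in replicates 4 and 6 than in replicates 1 and 3 in both groups, and the groups overlapped. The cKO libraries differed from control by 0.563 ± 1.48 percentage points (SD of 4 pairs, from -1.46 to 2.06, exact paired permutation p = 0.5). Counted without length the share was 51.9% in control and 52.8% in cKO, so its level depends on the length used.

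**Figure D3:**
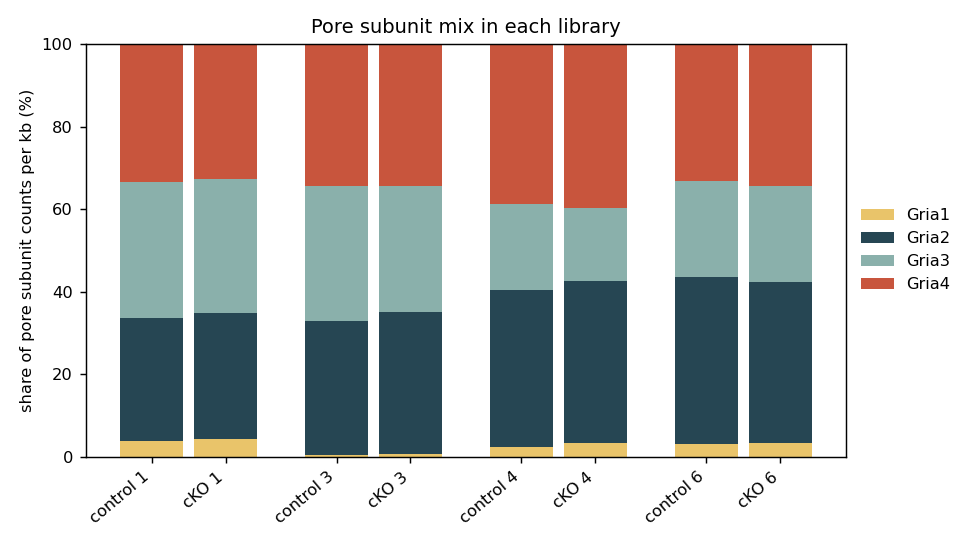
Share of each pore subunit in the 4 Gria genes, as counts per kilobase of exon in percent, for each library. Gria2 ran from 29.9% to 40.5%, Gria1 from 0.372% to 4.28%, and control and cKO bars of a replicate lay within 2.06 percentage points for Gria2.

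Gria2 was then set against each of the other subunits. Gria2 over Gria1, per kilobase, was 8.00, 87.2, 15.9 and 13.8 in control replicates 1, 3, 4 and 6 and 7.12, 57.3, 11.8 and 12.1 in cKO. It was lower in cKO in all 4 pairs, by a log2 difference of -0.35 ± 0.21 (SD of 4 pairs, exact paired permutation p = 0.125). Gria1 made up 2.36% ± 1.44 of pore subunit counts per kilobase in control and 2.86% ± 1.58 in cKO (SD, n = 4). Gria2 over Gria3 was 0.910, 0.994, 1.83 and 1.74 in control and 0.940, 1.13, 2.21 and 1.68 in cKO, a difference of 0.11 ± 0.14 with 3 of 4 pairs higher (exact paired permutation p = 0.375). Gria2 over Gria4, per kilobase of exon union, was close to 1, from 0.895 to 1.219, and its pairs differed by -0.11 to 0.09 (mean 0.01, exact paired permutation p = 0.875). The level of a ratio between single genes depends on the lengths used, but its difference within pairs does not. For Gria2 over the other 3 subunits together the pairs ran from -0.09 to 0.13 (mean 0.04, exact paired permutation p = 0.5). Values of p this high do not show that the mix was equal.

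**Figure D4:**
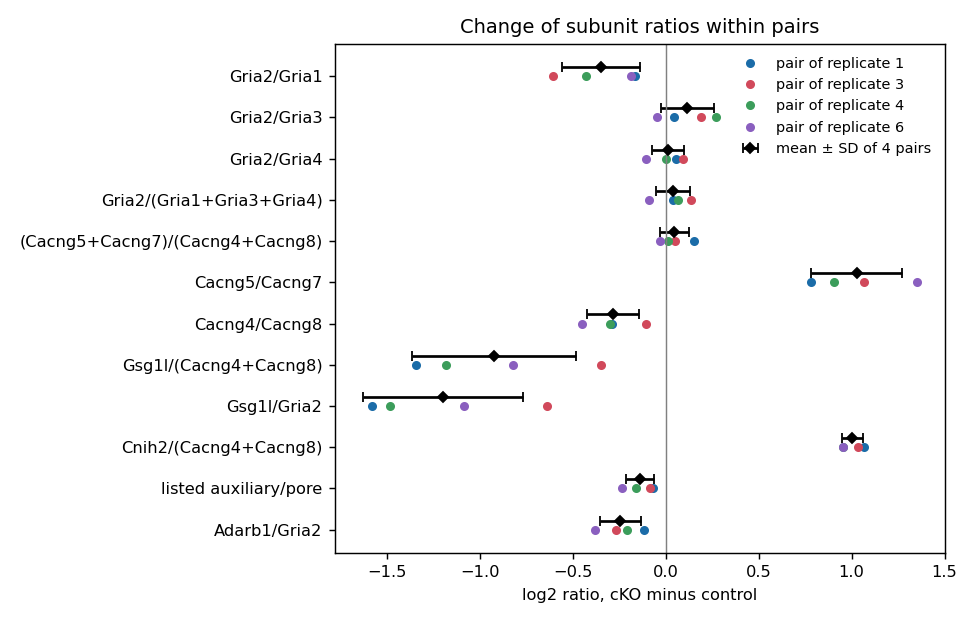
Log2 ratio in cKO minus control for 12 ratios; coloured points are the 4 pairs and black diamonds with bars the mean ± SD. Cnih2 over Cacng4 and Cacng8 moved by 0.95 to 1.07 and Gsg1l over Gria2 by -1.58 to -0.64, while Gria2 over the 3 other pore subunits together straddled 0 and Gria2 over Gria1 was below 0 in all 4 pairs.

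Ratios that involve the auxiliary subunits were compared next. Cnih2 over the type I TARPs Cacng4 and Cacng8, per kilobase, was 0.109, 0.104, 0.151 and 0.137 in control replicates 1, 3, 4 and 6 and 0.228, 0.213, 0.292 and 0.265 in cKO. The groups did not overlap, and the difference was 1.003 ± 0.057 log2 units (SD of 4 pairs). Disregarding the pairs, an exact permutation of the 8 libraries gave p = 0.0286, the smallest it can give, and 0.371 after adjustment over 13 ratios. Gsg1l over Gria2 was 0.0566, 0.00541, 0.0302 and 0.120 in control and 0.0189, 0.00348, 0.0108 and 0.0564 in cKO. It was lower in all 4 pairs, with a difference of -1.20 ± 0.43 log2 units, with groups that overlapped. Cacng5 over Cacng7 was higher in all 4 pairs (1.03 ± 0.25), yet Cacng5 remained at most 0.0286 of Cacng7 per kilobase. Cacng4 over Cacng8 was lower in all 4 pairs (-0.29 ± 0.14). The type II over type I ratio, dominated by Cacng7 and Cacng4, ran from -0.03 to 0.15 between pairs. The 6 auxiliary genes together over the 4 pore genes were lower than control in all 4 pairs, with a mean difference of -0.14 ± 0.08 log2 units. Cacng4 and Cacng7 held most of the auxiliary sum per kilobase, so this ratio does not describe Cnih2 and Cacng5, which rose. Each of the ratios in this paragraph that moved one way in all pairs had an exact paired permutation p of 0.125.

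The editing enzymes bear on the Q/R site shown above. Adarb1, the gene of ADAR2, held 22.4, 27.5, 25.4 and 29.9 CPM in control replicates 1, 3, 4 and 6 and 22.1, 25.3, 23.8 and 25.0 CPM in cKO. It was lower in 4 of 4 pairs but did not pass (-0.12 ± 0.05, adjusted p = 0.110 in edgeR). Adarb1 over Gria2 was lower in all 4 pairs, with a difference of -0.24 ± 0.11 log2 units (SD of 4 pairs, exact paired permutation p = 0.125). Adarb2 encodes ADAR3, a brain relative that binds RNA and has no known editing activity. Adarb2 rose from 3.29, 3.31, 2.32 and 3.31 CPM in control to 6.13, 9.83, 9.73 and 12.3 CPM in cKO. Its groups did not overlap, which held for 3.67% of all genes tested (2.39% with cKO higher). The change of Adarb2 was 1.61 ± 0.18 (3.06-fold, adjusted p = 0.00141 in edgeR, 0.110 without the block). Adar, the third editing gene, did not pass (-0.02 ± 0.03). No editing level can be read from these counts.

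**Figure D5:**
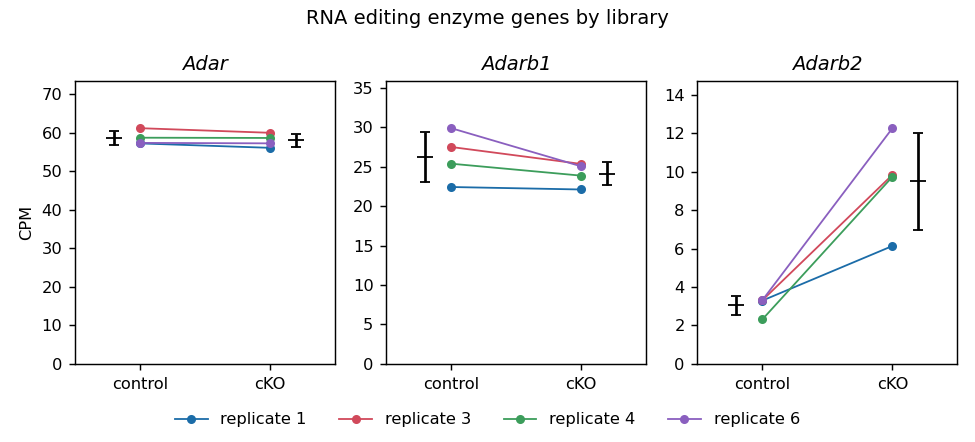
CPM of Adar, Adarb1 and Adarb2 in each library; lines join the libraries of a replicate number, and black bars give the group mean ± SD (n = 4). Adarb2 lay between 6.13 and 12.3 CPM in cKO, above all control libraries (2.32 to 3.31).

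Other auxiliary and associated proteins of AMPA receptors were taken from a list of 25 genes. Of the 23 tested, 8 rose, 2 fell and 13 did neither, with a median of 0.16. Of all genes tested, 10.0% rose and 10.4% fell. The TARP genes Cacng2 and Cacng3 were near absent: Cacng2 had at most 3 counts in a control library and 7 in a cKO library, and Cacng3 at most 4 and 8. A count of 0, seen in 2 control libraries for each, allows up to 3 counts, at most 0.0588 CPM for Cacng2 and 0.0568 CPM for Cacng3 in those libraries. Shisa7, of a family of AMPA receptor partners, rose by 0.32 ± 0.03 (74.0 to 92.4 CPM), and Frrs1l, needed for receptor assembly, by 0.28 ± 0.05 (67.2 to 81.9 CPM). Cnih3, the close relative of Cnih2, rose by 0.38 ± 0.10 from 4.51 to 5.92 CPM, but its edgeR adjusted p was 0.101 without replicate 3 and 0.0756 without replicate 4. The secreted Olfm3 (1.41 ± 0.20, 0.681 to 1.81 CPM) and Olfm1 (0.27 ± 0.06) and the pentraxin receptor Nptxr (0.20 ± 0.05) rose as well. Outside the naming rule, and chosen after their values were seen, Nptx2 (1.27 ± 0.27, 12.4 to 25.5 CPM) and Lrrtm4 (0.27 ± 0.07) complete the genes that rose, and Abhd12 fell (-0.13 ± 0.04, 117 to 105.9 CPM). The call of Olfm1 was lost without replicate 3 (adjusted p = 0.0640 in edgeR). Nptxr was lost without replicate 1, 4 or 6 (adjusted p from 0.0599 to 0.0916 in edgeR). Without replicate 4 the number that rose was 4, and the number that fell was 1 without replicate 3 and 0 without replicate 4 or 6.

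Shisa9, which encodes the auxiliary protein CKAMP44, fell by the fitted change (-0.48 ± 0.11, adjusted p = 0.0265 in edgeR), unevenly between batches. Its levels were 9.65, 2.10, 50.2 and 53.8 CPM in control replicates 1, 3, 4 and 6 and 7.93, 2.43, 32.0 and 34.7 CPM in cKO. It was lower in cKO in 3 pairs and higher in replicate 3, and levels were higher in replicates 4 and 6, where Gpr17 and Bcas1 were also higher; the part of differentiating cells was not tested. Without replicate 4 or 6 its edgeR adjusted p was 0.136 and 0.106. Of the 24 anchoring and trafficking genes, 4 rose, 1 fell and 19 did neither. Across all genes tested, 20.5% passed in either direction, 10.0% higher and 10.4% lower. Arc, an activity-induced gene that promotes AMPA receptor endocytosis, rose by 1.12 ± 0.11, from 9.35, 9.84, 1.65 and 0.757 CPM to 17.5, 19.8, 4.43 and 2.24 CPM. The scaffold genes Lin7c (0.17 ± 0.03) and Pick1 (0.22 ± 0.06) and the endosomal sorting gene Vps35 (0.18 ± 0.04) rose by little, and Epb41l2 fell (-0.22 ± 0.06); Pick1 was lost without replicate 1 or 3 (adjusted p = 0.0694 and 0.0896 in edgeR) and Epb41l2 without replicate 1 or 4 (0.0631 and 0.0893). Of 12 genes of kinases, phosphatases and glutamate uptake, 3 fell and 9 did neither, where 10.4% of all genes tested fell. They were the glutamate transporter gene Slc1a3 (-0.28 ± 0.03, from 1137 to 944 CPM) and the kinase genes Prkca (-0.20 ± 0.05) and Camk2g (-0.14 ± 0.04). Prkca was lost without replicate 1, 4 or 6 and Camk2g without replicate 3, 4 or 6 (adjusted p from 0.0829 to 0.163 in edgeR).

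Neuron markers moved in the same comparison and are given beside these receptor genes. Of 16 tested of 20 listed, 8 rose and 8 did neither, where 10.0% of all genes tested rose. Those that rose were Snap25 (1.52 ± 0.09), Stmn2 (2.70 ± 0.37, 0.146 to 0.991 CPM), Celf4 (0.84 ± 0.11), Syt1 (0.84 ± 0.09), Nefl, Dcx, Elavl4 and Syn1. The summed level of the list was 1292 to 1879 CPM in control and 1398 to 1951 CPM in cKO, higher in all 4 pairs. Most of that sum was Map2 (970 CPM in control), which did not pass (-0.01 ± 0.03). Rbfox3 did not pass either and was lower in cKO in all 4 pairs (-0.40 ± 0.17, adjusted p = 0.115 in edgeR). Tubb3 had a fitted change of -0.003 ± 0.13 and was higher in 3 of 4 pairs. The fitted changes of Nefm, Nefh, Gap43, Gad1 and Elavl3 were positive but did not pass. Among markers that define transmitter type, Gad1 had the highest level, 1.09 CPM in control and 1.75 CPM in cKO (log2 fold change 0.66, adjusted p = 0.102 in edgeR, higher in 3 of 4 pairs). Control means were 0.190 CPM for Slc17a7, 0.0706 CPM for Gad2 and 0.0452 CPM for Slc32a1; in cKO they were 0.145, 0.151 and 0.0236 CPM, with Slc32a1 at 0 counts in 1 library. Slc17a6, also listed, was not among the genes of the count table. Of 13 differentiation markers tested, 6 rose and 7 did neither, and the sum was higher in cKO in 3 of 4 pairs. Of 9 microglia markers, 3 were in the table and summed to at most 18.2 CPM, and the 6 of 8 vascular and fibroblast markers in the table summed to at most 6.90 CPM. The part of these cells in the changes of the receptor genes was not tested.

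The library profiles most like each pore subunit were sought among 3363 genes whose mean reached 5 CPM and whose SD reached 0.3 in log2 CPM. Likeness is the root mean square difference of centred log2 CPM over the 8 libraries, where a smaller value is closer. Nearest to Gria1 (own SD 1.29) were Maf (0.19), Gabrb1 (0.25) and Ccdc3 (0.33), which were also low in replicate 3. Nearest to Gria3 (own SD 0.35) were G2e3, Ipo11 and Fkbp2 (0.05 to 0.06), to Gria4 (own SD 0.21) Rims1, Ptprk and Qpct (0.14 to 0.18), and to Gria2 (own SD 0.20) Ube2e2, Phactr1 and 6430548M08Rik (0.13 to 0.14). For Gria2 and Gria4 these differences are most of the gene's own SD, which lies under the SD required of the genes compared, so they are not close matches. Nearest to Gsg1l (own SD 1.68) were Celsr1 (0.50), Vcam1 (0.52) and Igfbp5 (0.53). The 8 libraries come from 4 batches, so they are not independent points.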

How the data were processed

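Polyadenylated RNA of 8 libraries was sequenced, 4 control and 4 cKO. The tools named in the submitters' processing notes are STAR, cutadapt, DESeq2 and Partek, with the build mm10; their versions, the gene annotation and the strand setting were not given in the sources used. The values the authors deposited are estimated counts for each gene without normalization, and 52% are not whole. Counts were rounded and filtered with edgeR's filterByExpr (minimum count 10), which removed 6053 genes. edgeR 4.0.16 fitted group with the replicate number as a block (TMM factors, robust quasi-likelihood test, 2-sided); the script was tested on simulated data. The labels name 1 batch for each pair. Deviations from the group mean had r of 0.75 to 0.79 within pairs and at most 0.39 otherwise. Over 12 pairs of libraries within groups, chi-square per degree of freedom was 54.2 to 252.6, so none were duplicates. Ratios used counts per kilobase of the GENCODE M21 exon union. Genes named are the 10 members, Ehmt1, Ehmt2, up to 6 called genes per pathway list by smallest p, 5 fixed genes and the 3 nearest profiles; Yif1a, Adar, Nptx2, Lrrtm4, Abhd12 and markers were named after their values were seen. Members and lists were chosen with earlier results of these data known. Alternatives were other scaling, filters, DESeq2 1.42.0, limma-voom (limma 3.58.1), no block and each pair left out. Since separate animals are not stated, p-values reflect only how these samples vary, which may be technical.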

Additional observations from a re-analysis of the deposited data

How the results depend on the processing

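Without the replicate block, edgeR called 0 members as higher and 0 as lower, and 0 in each direction in each pathway list; at an unadjusted p under 0.05 there was 1 member and 893 genes in all, and this was the one alternative that ended every member call. With the block, members that rose numbered 3 to 5 and those that fell 2 or 3 over all other settings; without each pair in turn the ranges were 3 to 4 and 2 to 3. Directions of the 7 called members held throughout. Gria3, which was not called, ran from -0.0450 to 0.0730 without 1 pair (-0.00524 without replicate 1), and Gria2 over Gria4 from -0.0166 to 0.0497 (-0.0035 without replicate 1). In the list of other associated proteins, 4 to 7 rose and 0 to 2 fell without 1 pair; in the trafficking list 0 to 1 fell, and limma-voom gave 2; in the kinase and uptake list 1 to 2 fell and 0 to 1 rose, and limma-voom gave 1 that rose. Cnih2 over type I TARPs gave p = 0.0286 in the exact unpaired permutation test with no pairing, for a log2 difference of 1.003. With no length in sums, the Gria2 share was 51.93% in control and 52.8% in cKO; with the longest coding transcript as length, an alternative added after seeing the data, it was 35.8% and 36.6%. Scaling alternatives moved the median of all genes by at most 0.0138 log2 units. Over all genes, 3706 were called, against 3 without the block and 2367, 2102, 2118 and 3432 without replicate 1, 3, 4 and 6; the cause was not tested. Depth limits Gsg1l most, with 19 and 11 counts in replicate 3.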
